A study of Mus musculus with 2 samples.

Results

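The RNA described here came from 9440 cell barcodes that carried melanocyte-lineage transcripts in both libraries of a lung endothelial study. These melanoma barcodes were chosen by a rule that used their counts: the same barcode sequence had 50 to under 1000 UMIs (unique molecular identifiers, 1 per captured RNA molecule) in each library, and at least 2 of the 5 rule markers Dct, Tyrp1, Pmel, Mlana and Trpm1 had a UMI over both libraries. They made up 40.7% of the 23192 barcodes that had 50 to under 1000 UMIs in both libraries. The comparison set was 13600 called cells (1000 to 5000 genes and under 20% mitochondrial UMIs). It could hold none of the melanoma barcodes, because under 1000 UMIs cannot give 1000 genes.

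Both libraries were prepared from wild-type (WT) C57BL/6 mice, whose lung cells were sorted for PECAM1, a surface protein of endothelial cells. The control library came from mice 6 h after PBS had been given into the tail vein, and the metastatic library from mice 6 h after 200000 B16-F10 cells per mouse had been given by the same route. B16-F10 is a pigmented mouse melanoma line grown in culture and labelled with a green dye before injection. The cells of 2 mice were pooled for each library and each group had 1 library, so that there was no replicate spread to judge a difference by and no p-value is given. Melanoma cells were given to the metastatic group alone. The rule required each melanoma barcode to be in both libraries, so its presence in the control library was set by the choice. Counted over all barcodes, which does not depend on the rule, the rule markers had 35157 UMIs in the control and 31938 in the metastatic library. The values below therefore describe the RNA of the melanoma barcodes summed over both libraries and give no effect of the injection. Where these molecules came from was not tested.

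Melanocytes and the tumours that arise from them make melanin inside melanosomes, organelles related to lysosomes. The enzymes tyrosinase, TYRP1 and DCT act on tyrosine and its products, PMEL forms the fibrils on which the pigment is laid down, and transporters and vesicle proteins supply and move the organelle. The transcription factor MITF, acting with SOX10 and PAX3, switches many of these genes on through a short E-box sequence in their promoters.

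The promoter letters TCATGTG, a form of that E-box, are shown first because they occur near the start of several genes that led the profile. In the 200 bases before each RefSeq start (GRCm38.p6), searched on both strands, TCATGTG was found in 2.57% of 32851 promoters. Of the 5 rule markers, 3 matched the RefSeq table, and all of these had a promoter with the letters. The windows of 30 bases are written 5′ to 3′ on the strand of the gene, with the match (or its reverse complement, CACATGA) in capitals.
Dct, chr14:118052380-118052409, minus strand: gtgcacttagggTCATGTGctaacaaagag
Tyrp1, chr4:80834154-80834183, plus strand: gtggggagggagTCATGTGctgcctagtag
Trpm1, chr7:64153681-64153710, plus strand: cccaaatcctcaTCATGTGcccaccccaaa
Tyr, chr7:87493517-87493546, minus strand: agaaaaagttagTCATGTGctttgcagaag
Slc24a5, chr2:125068097-125068126, plus strand: ggaggaaggagactgctCACATGAttcagc
Hps1, chr19:42779979-42780008, minus strand: caaagcaggccccggTCATGTGgctgagtc
Mc1r, chr8:123407018-123407047, plus strand: ggcacatgcccaTCATGTGgccaccctcag

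The match began 151 bases before the start of Dct, 47 before Tyrp1, 142 before Trpm1, 22 before Tyr, 13 before Slc24a5, 15 before Hps1 and 52 before Mc1r. In the GENCODE M21 annotation the Dct, Trpm1 and Tyr windows lay outside any gene, the Tyrp1 window in an exon of the gene itself, the Slc24a5 window before its gene except for the last 3 bases, the Hps1 window in an exon of Gm16244 and the Mc1r window in an intron of Gm20388. Among promoters of the other lists, the letters were in 3 of 21 for pigment genes outside the rule, in 1 of 20 for melanocyte regulators, and in 0 of 27 for glycolysis genes, 0 of 19 for G2/M genes and 0 of 9 for endothelial markers. A match of letters is a description of the sequence and does not show that a factor binds there.

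The barcodes were 16 bases long, and the 4 with the most UMIs are printed because the same letters marked RNA in both libraries.
Barcode A: tcgctcatcgcacggt
Barcode B: taaccagcagatactc
Barcode C: ctggacgcacgtagag
Barcode D: caacaaccacagcgct

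Barcode A, the deepest, had 502 control and 508 metastatic UMIs, with 2 and 3 UMIs of Dct and 0 and 5 of Tyrp1. Barcode B had 480 and 447 UMIs. Barcodes C and D were uneven, with 669 and 242 UMIs and with 699 and 183 UMIs. Most melanoma barcodes were even and shallow. Their median was 112 control and 102 metastatic UMIs, and 216 UMIs (100 to 1010) from 187 genes over both. The ratio of metastatic to control UMIs had a median of 0.914, and it was within 2-fold for 97.8% of them. Across barcodes, log10 UMIs of the libraries had a Pearson r of 0.86 and a Spearman rho of 0.88. The lower limit of 50 UMIs per library cuts this range, and the points share the same pair of sequenced libraries. Together the melanoma barcodes held 1175379 control UMIs and 1075622 metastatic UMIs, 1.73% and 1.66% of the library totals of 67929614 and 64733724.

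The rule markers are described without a comparison test because they chose the barcodes. Dct, the tautomerase of melanin synthesis, was at 5883 CPM (control library) and 5874 CPM (metastatic library), where CPM counts the UMIs of a gene per 1000000 UMIs of the summed barcodes. Tyrp1, its partner enzyme, was at 4517 and 4500 CPM, and Pmel was at 2341 and 2383 CPM. Mlana, a melanosome membrane protein, was at 1856 and 1866 CPM, and Trpm1, a cation channel of melanocytes, at 661 and 657 CPM. Each marker was thus at nearly the same level in both libraries. Summed, the markers reached 15268 CPM (95% interval 15107–15431) against 2.17 CPM in called cells. A UMI of Dct was present in 81.9% of melanoma barcodes and in 0.404% of called cells, although the called cells were deeper (median 6386 against 216 UMIs). The corresponding shares were 70.2% and 0.221% for Tyrp1, 43.9% and 0.375% for Pmel, 36.4% and 0.125% for Mlana, and 14.5% and 0.169% for Trpm1.

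The 2 markers could be counted in 1 library and then read in the other. Of the shared barcodes, 4745 had at least 2 markers in the control library alone, and the same barcodes held 12107 CPM (11823–12396) of the markers in the metastatic library. Conversely, 4273 had at least 2 markers in the metastatic library, and they held 12142 CPM in the control library. Barcodes with 0 markers in the library used for choosing still held 6610 CPM (metastatic library) and 6709 CPM (control library). Dct alone read 4766 CPM (metastatic library) and 4937 CPM (control library) after selection in the other one. Marker RNA was therefore found in the library that had not been used for the choice, at a level about as high in either direction.

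The threshold of 2 markers did not coincide with a gap in the values. Shared barcodes with 0, 1, 2, 3, 4 and 5 of the markers numbered 6211, 7541, 5895, 2735, 730 and 80. Just inside the rule, barcodes with 2 markers had 3422 CPM of the pigment genes outside the rule and 993 CPM of endothelial markers, and just outside it, barcodes with 1 marker had 3021 and 1059 CPM. Barcodes with 2 or more markers whose shallower library had 50 to 59 UMIs held 3689 CPM of these pigment genes, and those at 40 to 49 UMIs held 3695 CPM. Of all marker UMIs, 51.0% in the control and 51.5% in the metastatic library lay in the melanoma barcodes. Barcodes under 50 UMIs in both libraries held another 27.3% and 26.6%, and barcodes of 1000 UMIs or more in either library 0.540% and 0.617%.

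**Figure D1:**
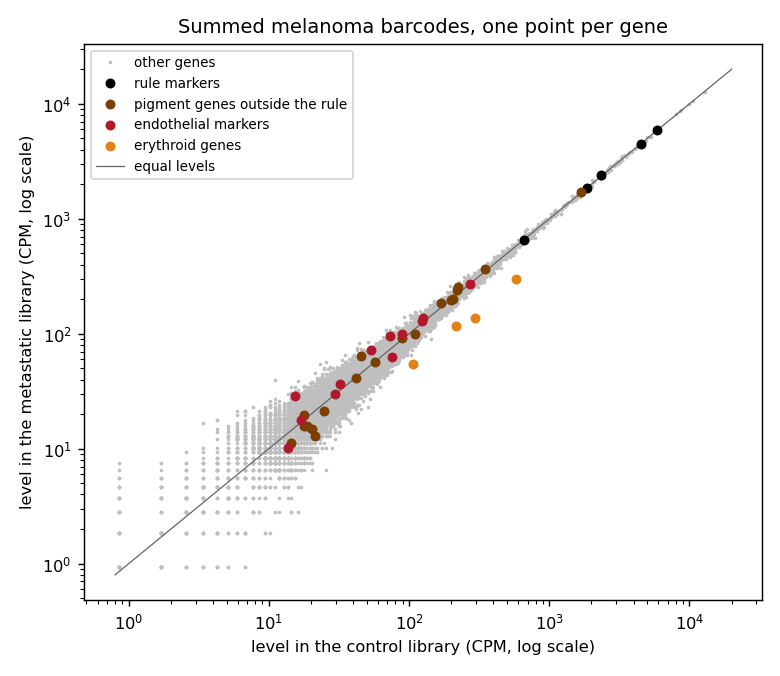
Level of each gene in the melanoma barcodes, with the control library on the horizontal axis and the metastatic library on the vertical axis (CPM, log scales, genes with a UMI in both). Rule markers, pigment genes and endothelial markers lie along the line of equal levels, while the globin genes lie below it, as for Hbb-bs at 583 CPM (control library) and 301 CPM (metastatic library).

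Gene by gene, the melanoma barcodes gave nearly the same profile in both libraries. Of 3654 genes with at least 100 UMIs in them, 1 was 2-fold or more apart between the libraries, against 33 of the same genes in the called cells. This gene was Hba-a1, an alpha-globin gene, at 297 CPM (control library) and 137 CPM (metastatic library). Its log2 ratio of metastatic to control was -1.12, and it was also below 0 in the called cells, at -0.83. In the melanoma barcodes the middle 95% of these log2 ratios over the 3654 genes ran from -0.44 to 0.42. Across the same genes the Pearson r of the log2 values was 0.988. Genes are not independent replicates, and both values describe the same barcodes. The erythroid list as a whole was at 1204 CPM (control library) and 613 CPM (metastatic library), a log2 ratio of -0.97 (-1.11 to -0.84). A single barcode held 298 of its 2074 UMIs, and without it the levels were 954 and 609 CPM. Hba-a1 and Hba-a2, and likewise Hbb-bs and Hbb-bt, are near-identical copies, so the split of reads between them is uncertain.

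The melanoma barcodes with uneven UMIs stood apart from the rest in the RNA they carried. In the 9237 barcodes within 2-fold, endothelial markers summed to 791 CPM and erythroid genes to 551 CPM. In the 120 barcodes over 2-fold deeper in the control library these were 6057 and 16355 CPM, and in the 83 barcodes over 2-fold deeper in the metastatic library 5978 and 6369 CPM. A single barcode held 298 of the 694 erythroid UMIs of the control-deeper group, and without it the erythroid level there was 9460 CPM (an alternative chosen after the data were seen). The pigment genes outside the rule were at 3621, 1956 and 1993 CPM in these groups and the mesenchymal genes, with 6 and 2 UMIs in the uneven groups, at 101, 141 and 71.2 CPM. Uneven barcodes thus held more endothelial and erythroid RNA and less RNA of the pigment genes outside the rule. They were also deeper, with medians of 314 and 305 UMIs against 214.

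To see whether the label fitted genes that the rule had not used, levels were compared with those in the called cells. This comparison used 7827 genes with at least 20 CPM in either set and 50 UMIs over both sets. The 5 rule markers were among these genes and among those 4-fold or more higher. Of these, 859 (11.0%) were 4-fold or more higher in the melanoma barcodes and 1064 (13.6%) were 4-fold or more lower, and the median log2 ratio was -0.11. The filter admits a gene through whichever set has more of it, so counts are set beside these shares and not tested. Pecam1 had a UMI in 96.0% of the called cells and 1.46% of melanoma barcodes. Free RNA can add to such shares: the epithelial gene Sftpc had a UMI in 40.9% of the same called cells (median 6386 UMIs) and in 4.10% of melanoma barcodes (median 216 UMIs). Mitochondrial transcripts made up 5.81% of UMIs in the melanoma barcodes and 2.84% in called cells, and ribosomal protein transcripts 17.6% and 10.5%. Malat1, a nuclear RNA, was at 8083 CPM against 43071 CPM. The part of these RNA-quality values in the ratios below was not tested.

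The pigment genes outside the rule were high. Their 20 genes summed to 3534 CPM (control library), 3607 CPM (metastatic library) and 234 CPM in called cells, a log2 ratio of 3.93 (3.89–3.97) for both libraries together. Of 13 compared, 10 were 4-fold or more higher (background 11.0%) and 0 lower, with a median log2 ratio of 4.87. The other 3 compared genes were the general vesicle and copper-transport genes Atp7a, Rab27a and Hps3, with log2 ratios of 0.42, 0.42 and 1.64. None of the 20 was at 0 in the melanoma barcodes.

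Tyr encodes tyrosinase, the first and rate-limiting enzyme of melanin synthesis. It was at 41.7 CPM (control library) and 40.9 CPM (metastatic library) from 93 UMIs, and it had 1 UMI in called cells, which gave a log2 ratio of 11.93 with a counting interval of 9.42 to 17.25. Gpnmb, a melanosome and lysosome glycoprotein, had the highest level in the list, with 1690 and 1697 CPM against 6.10 CPM in called cells (log2 8.12, 7.99–8.25).

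Transporters of the melanosome differed widely in level. Slc45a2 was at 222 and 257 CPM against 0.0529 CPM (log2 12.14). Slc24a5 was at 347 and 365 CPM against 29.5 CPM (log2 3.59). Oca2, an anion transporter, was at 17.9 and 15.8 CPM, with 38 UMIs in melanoma barcodes and 0 in called cells. Gpr143, a melanosomal receptor, was at 17.3 CPM against 0.360 CPM.

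Genes that deliver melanosome cargo or carry melanosomes along actin were also higher. Rab38, a GTPase that brings enzymes to the organelle, was at 199 and 198 CPM against 4.08 CPM, and its relative Rab32 at 24.7 and 21.4 CPM against 3.29 CPM. Mlph was at 168 and 184 CPM against 3.67 CPM (log2 5.58), and Myo5a, the motor to which it links, at 221 and 239 CPM against 7.87 CPM (log2 4.87). Rab27a, which completes that transport complex and also acts in other secretory cells, was at 88.5 and 91.1 CPM against 67.2 CPM. Bace2, a protease that cuts PMEL, was at 205 and 201 CPM against 8.55 CPM. Cited1, a transcriptional coactivator of pigment cells, was at 111 and 99.5 CPM against 0.0423 CPM from 4 UMIs. Mreg was at 18.7 CPM against 0.138 CPM. The Hps genes for assembly of lysosome-related organelles were low in both sets and had no common direction. Hps3 was at 54.2 against 17.4 CPM, Hps1 at 17.8 against 3.20 CPM and Hps5 at 17.3 against 12.9 CPM. Lower than in called cells were Hps4, at 12.9 against 18.3 CPM, and Hps6, at 2.67 against 8.98 CPM. Of these genes only Hps3 passed the filter.

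Among regulators of the melanocyte lineage, some transcription factors and the receptor Mc1r were high, while the receptors Kit and Ednrb were low. Mitf was at 397 CPM (control library) and 371 CPM (metastatic library) against 4.83 CPM in called cells (log2 6.32, 6.15–6.48). Sox10 was at 117 and 129 CPM against 0.0847 CPM (log2 10.50), and Pax3 at 194 and 169 CPM against 0.0529 CPM (log2 11.75). Tfap2a, another factor of neural crest cells, was at 60.4 and 62.3 CPM against 0.190 CPM. Mc1r, the melanocortin receptor that drives pigment synthesis, was at 74.9 and 58.6 CPM against 0.286 CPM. These were the 5 of 9 compared genes that were 4-fold or more higher (background 11.0%).

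Kit and Ednrb, receptors that melanocyte precursors need, were the 2 that were 4-fold or more lower (background 13.6%). Kit was at 21.3 and 17.7 CPM against 505 CPM in called cells (log2 -4.69), and Ednrb at 17.9 and 10.2 CPM against 244 CPM (log2 -4.10). For comparison, the summed endothelial markers had a log2 ratio of -3.93. Zeb2 was near equal, with 215 against 197 CPM, and Tfe3, a relative of Mitf, was at 27.1 against 40.5 CPM. Irf4 (4.89 CPM) and Erbb3 (11.6 CPM) were under the filter. Lef1 had 0 UMIs, which allows up to 1.33 CPM (3 counts over both libraries), against 3.35 CPM in called cells. The list as a whole was at 1111 against 997 CPM, since Kit and Ednrb made up most of the level in called cells.

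Most genes linked to loss of the melanocyte state had few or no UMIs in the melanoma barcodes, and fibronectin was the exception. Ngfr, Egfr and Sox2 had 0 UMIs, which allows up to 1.33 CPM, and Wnt5a and Nt5e had 1 UMI each. In called cells Ngfr, Egfr and Sox2 were at 0.0212, 0.656 and 0.0106 CPM, so their counts of 0 do not show a lower level. Axl was at 19.5 CPM against 7.67 CPM and Sox9 at 6.66 against 2.21 CPM. Tgfbi was at 7.11 against 10.6 CPM. Only Fn1 (fibronectin, 334 UMIs, 148 against 13.1 CPM) and Zeb1 (14.2 against 210 CPM, log2 -3.89) of the 10 genes passed the filter. Fn1 was higher in the shared barcodes with 0 rule markers (251 CPM) than in the melanoma barcodes. Cdh19, a cadherin of Schwann cell precursors, was at 39.1 and 56.7 CPM against 0.0635 CPM, whereas Ncmap, a myelin gene, was at 0.444 CPM.

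**Figure D2:**
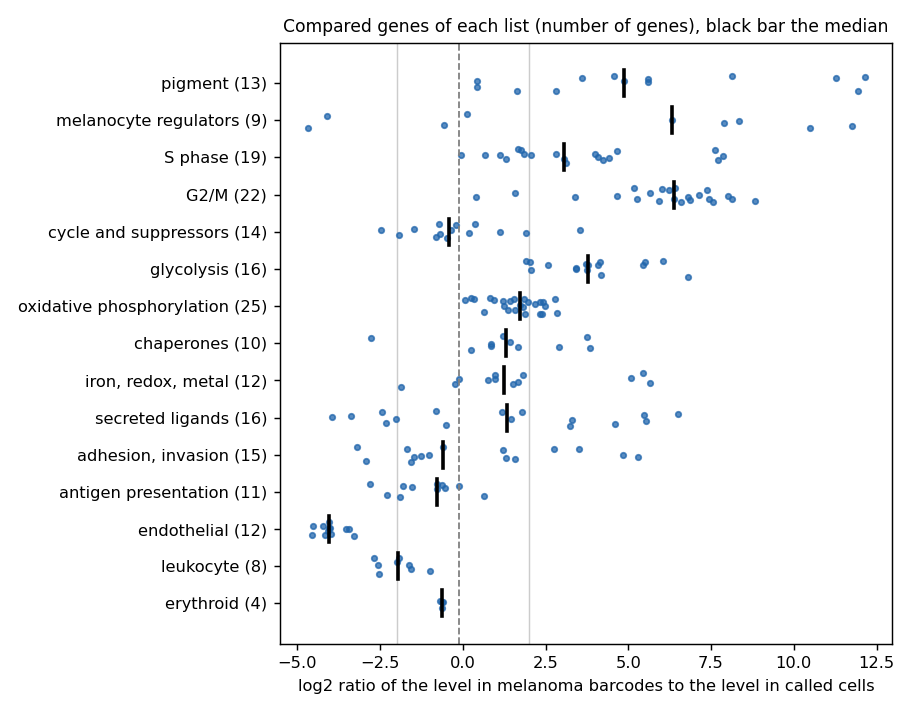
Log2 ratio of the level in melanoma barcodes to the level in called cells for every compared gene of 15 lists (1 point per gene, black bar the list median, dashed line the median of all compared genes, grey lines 4-fold). Pigment and G2/M genes lie mostly to the right with medians of 4.87 and 6.40, and all 12 endothelial markers lie to the left.

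Cell cycle genes were among the most uniformly higher groups. The 22 G2/M genes summed to 3262 CPM (control library) and 3257 CPM (metastatic library) against 479 CPM in called cells (log2 2.77, 2.73–2.80). Of these, 20 were 4-fold or more higher (background 11.0%), with a median log2 ratio of 6.40, and the exceptions were Hmgb2 (1.57) and Tubb4b (0.41), which are also used outside mitosis. Top2a, the topoisomerase that untangles replicated DNA, was at 309 and 329 CPM against 3.84 CPM. Mki67, a mark of dividing cells, was at 240 and 245 CPM against 1.70 CPM, and Ccnb1, the mitotic cyclin, at 78.3 and 87.4 CPM against 0.180 CPM.

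The S-phase genes moved less far from the called cells. Their 21 genes summed to 1838 and 1814 CPM against 307 CPM (log2 2.57, 2.52–2.62), and 12 of 19 compared were 4-fold or more higher (background 11.0%). Rrm2, which makes deoxynucleotides, was at 162 and 183 CPM against 0.825 CPM. Ccne1, the cyclin of S-phase entry, was at 45.9 and 52.1 CPM against 0.212 CPM. Slbp, a histone mRNA binding protein, had a log2 ratio of -0.06.

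The cycle regulators, oncogenes and suppressors were mostly within 4-fold of the called cells, with 1 of 14 compared genes 4-fold or more higher (background 11.0%) and 1 lower (background 13.6%), shares no larger than those over all genes. The higher one was Mtap, a methionine salvage enzyme, at 265 and 255 CPM against 22.2 CPM (log2 3.55). The lower one was Cdkn1a, the p53 target that halts the cycle, at 320 and 275 CPM against 1653 CPM (log2 -2.47). Cdkn2a, which encodes the p16 and p19 suppressors and is known to be lost in the B16 line, had 0 UMIs in 2251001, which allows up to 1.33 CPM, against 4.18 CPM in called cells. Its neighbour Cdkn2b had 1 UMI, with a ratio interval on the log2 scale of -10.73 to -2.94 around -5.42. Both genes lie next to Mtap on chromosome 4: Mtap at chr4:89137122, Cdkn2a at chr4:89274471 and Cdkn2b at chr4:89306299 (gene starts, GRCm38). Trp53, Braf and Nras had log2 ratios of 0.37, 0.20 and -0.69, and Cdk4 and Ccnd2 of 1.13 and 1.91. Myc was at 15.5 against 3.84 CPM and was under the filter.

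The G2/M and S-phase levels rose with the depth of the melanoma barcodes, and G2/M UMIs were spread more unevenly than Poisson counts. The variance of G2/M UMIs over barcodes was 1.44 times that of Poisson counts at the same depths, compared with 1.67 times for glycolysis genes, 1.31 times for endothelial markers, 1.16 times for the pigment genes outside the rule, 1.13 times for S-phase genes and 1.06 times for the regulators. Erythroid and mesenchymal genes were spread more unevenly than any of these, at 19.38 and 3.13 times. G2/M UMIs were present in 40.7% of melanoma barcodes. In 4 groups of rising depth and about equal number (100–161, 162–215, 216–284 and 285–1010 UMIs), the G2/M level was 1895, 2461, 3152 and 4203 CPM and the S-phase level 1211, 1501, 1899 and 2156 CPM. Pigment genes outside the rule went the other way, from 3945 to 3783, 3566 and 3334 CPM. The rule markers fell by far more, from 21952 to 11813 CPM, but the requirement of 2 markers selects shallow barcodes that are rich in them. The part of this selection in the other lists was not tested.

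Barcodes with and without G2/M UMIs were also compared within each of the 4 depth groups. In the shallowest group, barcodes with 1 or more G2/M UMIs had 1666 CPM (1368–2009) of S-phase genes and those with 0 had 1091 CPM (966–1229). In the deepest group the values were 2497 CPM (2375–2625) and 1391 CPM (1256–1537). The S-phase level was higher with G2/M UMIs in all 4 groups. The intervals did not overlap, but they cover counting error only, and barcodes are not replicates. Depth was not matched within a group. Pigment levels were within each other's intervals in the shallowest group (3912 and 3954 CPM) and lower with G2/M UMIs in the deepest group (3209 CPM, 3070–3353, against 3613 CPM, 3393–3843).

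**Figure D3:**
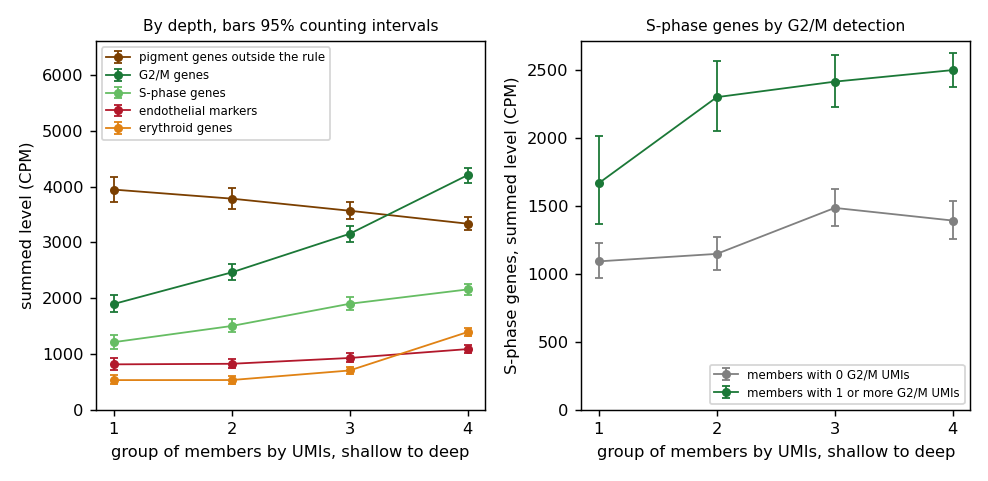
Summed level of 5 gene lists in 4 groups of melanoma barcodes of about equal number ordered by UMIs (left, CPM) and the S-phase level of barcodes with 0 or with 1 or more G2/M UMIs in the same groups (right, CPM), with 95% counting intervals. The G2/M level climbs from 1895 to 4203 CPM while the pigment level goes from 3945 to 3334 CPM, and the S-phase level is higher with G2/M UMIs in each group.

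Energy metabolism genes had the highest summed levels among the gene lists. The 17 glycolysis genes summed to 20125 CPM (control library) and 20300 CPM (metastatic library) against 1532 CPM in called cells (log2 3.72, 3.71–3.74), and 15 of 16 compared were 4-fold or more higher (background 11.0%). Gapdh, the dehydrogenase of the pathway, was at 5262 and 5177 CPM against 298 CPM (4345 CPM in shared barcodes with 0 rule markers). Pgk1, which makes ATP, was at 2633 and 2694 CPM against 61.6 CPM, and Tpi1 at 2325 and 2268 CPM against 50.5 CPM. Ldha, which forms lactate, was at 2072 and 2076 CPM against 121 CPM. The largest ratio was that of hexokinase Hk2, at 196 and 260 CPM against 2.05 CPM (log2 6.79), while Hk1 (log2 1.91) was the compared gene short of 4-fold. The lactate carrier Slc16a1 was at 51.5 against 0.773 CPM, and the glucose carrier Slc2a1 at 119 against 8.80 CPM.

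Nuclear genes of oxidative phosphorylation were higher by a smaller step. They summed to 22178 CPM against 6272 CPM (log2 1.82), all 25 had ratios above 0 and 8 were 4-fold or more higher (background 11.0%). Ndufa4 was at 2704 against 393 CPM and cytochrome c (Cycs) at 835 against 115 CPM, while Cox6a1 was at 313 against 297 CPM. The direction was also that of the mitochondrial genome transcripts, with mt-Atp6 at 12732 against 5311 CPM.

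Stress and metal genes were led by single members. The 10 chaperones summed to 12058 against 3678 CPM, with 3 of 10 higher by 4-fold or more (background 11.0%): Hspe1 (log2 3.85) and Hspd1 (3.75), the chaperonin pair of mitochondria, and Hsp90aa1 (2.91). Hspa1a was lower (9.77 against 66.8 CPM) and Hspa1b near equal (56.9 against 48.1 CPM), but these are near-identical copies. The iron, redox and metal genes summed to 13706 against 6035 CPM. Metallothioneins Mt1 and Mt2, which bind zinc and copper, were at 3014 against 69.6 CPM and 490 against 14.4 CPM. In shared barcodes with 0 rule markers Mt1 and Mt2 were at 2670 and 463 CPM. The transferrin receptor Tfrc was at 199 against 3.96 CPM. Ferritin heavy chain Fth1 was near equal, with 1914 against 2085 CPM.

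Secreted ligands included several at high levels. Of 16 compared, 6 were 4-fold or more higher (background 11.0%) and 5 lower (background 13.6%). Mif, a cytokine of macrophages and tumours, was at 2386 and 2399 CPM against 51.4 CPM (log2 5.54). Lgals1, a sugar-binding lectin, was at 1588 and 1530 CPM against 17.3 CPM (log2 6.49), and its relative Lgals3 at 333 against 33.5 CPM. Shared barcodes with 0 rule markers held 1939 CPM of Mif, 1282 CPM of Lgals1 and 315 CPM of Lgals3. The stress hormone Gdf15 was at 276 and 265 CPM against 11.1 CPM. Of the endothelial growth factors, Pgf was at 55.1 against 1.24 CPM (63.2 CPM in shared barcodes with 0 rule markers) and Vegfb at 130 against 13.9 CPM, whereas Vegfa was at 119 against 170 CPM and Vegfc at 8.88 against 48.5 CPM. Kitl, the ligand of Kit, was at 60.0 against 934 CPM, and Pdgfb at 16.4 against 171 CPM. The chemokines Ccl2 and Cxcl1 were at 3.55 and 5.33 CPM, and Mdk and Ptn at 0.888 and 0.444 CPM.

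Adhesion and invasion genes had no common direction. They summed to 3076 against 3572 CPM, with 4 of 15 compared 4-fold or more higher (background 11.0%) and 2 lower, a share like that over all genes (13.6%). Cd63, a tetraspanin of melanosomes and lysosomes, was at 1309 and 1322 CPM against 33.8 CPM (log2 5.28). Cdh2, N-cadherin, was at 35.1 against 1.23 CPM (37.6 CPM in shared barcodes with 0 rule markers), and Cd44, the hyaluronan receptor, at 234 against 35.1 CPM. The protease Mmp2 was at 34.7 against 3.06 CPM (47.0 CPM with 0 rule markers). Timp3, a protease inhibitor, was at 62.2 against 566 CPM. Integrin beta 1 (Itgb1) was at 279 against 774 CPM.

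Antigen presentation genes were lower in sum. They summed to 2888 CPM (control library) and 2835 CPM (metastatic library) against 7609 CPM in called cells (log2 -1.41, -1.45 to -1.37), and 0 of 11 compared were 4-fold or more higher (background 11.0%) and 2 were lower (background 13.6%). The class I heavy chains H2-K1 and H2-D1 were at 478 against 1797 CPM and 538 against 2618 CPM, with the split between these similar genes uncertain. B2m, their light chain, was at 1111 against 1903 CPM. Irf1, an interferon response factor, was at 36.0 against 253 CPM and was, with H2-D1, past 4-fold. Cd274, which encodes PD-L1, was at 4.89 against 16.7 CPM.

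Endothelial and most other lung and blood cell markers were lower than in called cells but not absent. The 12 endothelial markers summed to 921 CPM (control library) and 992 CPM (metastatic library) against 14552 CPM in called cells, 6.56% of that level, and all 12 were 4-fold or more lower (background 13.6%). Pecam1, the gene of the sorted protein, was at 53.6 and 71.6 CPM against 1110 CPM, and Cdh5 at 75.7 and 62.3 CPM against 1618 CPM. In barcodes with 50 to under 1000 UMIs in 1 library and under 50 in the other (63112 control and 62950 metastatic barcodes), endothelial markers stood at 11901 CPM and pigment genes outside the rule at 213 CPM. The melanoma barcodes therefore differed in both lists from these shallow barcodes that the libraries did not share. Shared barcodes with 1 rule marker were close to the melanoma barcodes, at 1059 CPM of endothelial markers and 3021 CPM of the pigment genes outside the rule.

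Of the other marker lists, leukocyte genes were at 264 against 1059 CPM, platelet genes at 83.5 against 284 CPM and epithelial genes at 274 against 1873 CPM. Ptprc, which encodes CD45, was at 5.78 CPM, and Epcam had 0 UMIs. Sftpc, the surfactant gene, was at 199 against 1731 CPM, whereas Scgb1a1, the club cell gene, was at 44.2 CPM (control library) and 83.7 CPM (metastatic library) against 41.0 CPM. The direction of Scgb1a1 rests on the metastatic library, since its log2 ratio was -0.01 with the control library alone. Neutrophil genes were at 11.6 against 160 CPM, B cell genes at 4.44 against 33.9 CPM with Ms4a1 at 0, and T and NK cell genes at 4.89 CPM (log2 -2.11). Mesenchymal genes went the other way, at 102 against 37.1 CPM. Sex-linked genes were lower, at 14.2 against 223 CPM. Of the latter, Ddx3y on chromosome Y was at 8.88 against 133 CPM and Xist had 1 UMI.

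With a rising number of rule markers the lists changed in opposite directions. From 0 to 5 markers, pigment genes outside the rule were at 1817, 3021, 3422, 3665, 4025 and 4422 CPM. Endothelial markers were at 4194, 1059, 993, 914, 906 and 611 CPM, erythroid genes at 5544, 871, 1116, 675, 594 and 611 CPM, and mesenchymal genes at 1060, 154, 129, 70.1, 54.4 and 0 CPM. The largest step was between 0 and 1 marker. Depth rose along the same order, from a median of 166 to 310 UMIs. The regulators changed little in sum, between 897 and 1143 CPM, but single genes of the list went in opposite directions. From barcodes with 0 markers to the melanoma barcodes, Mitf went from 204 to 385 CPM and Pax3 from 108 to 182 CPM. Over the same step Kit went from 93.9 to 19.5 CPM and Ednrb from 66.6 to 14.2 CPM. Set against the barcodes with 0 markers, 0 genes outside the rule were 4-fold or more higher in the melanoma barcodes and 239 of 7090 were 4-fold or more lower, so the pigment genes differed in these groups by less than they did from called cells (log2 0.97 against 3.93).

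**Figure D4:**
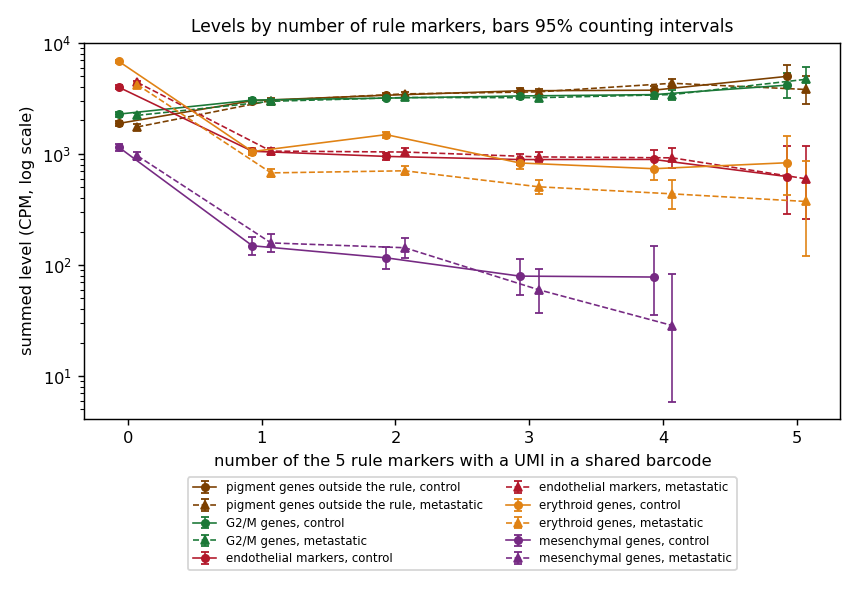
Summed level of 5 gene lists (CPM, log scale) in shared barcodes with 0 to 5 of the rule markers, for the control (circles, solid lines) and the metastatic library (triangles, dashed lines), with 95% counting intervals. Pigment genes rise from 1817 to 4422 CPM over both libraries and endothelial markers go from 4194 to 611 CPM. Mesenchymal genes with 5 markers are at 0 and are not drawn.

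The genes with the highest level in the melanoma barcodes were mt-Atp6, mt-Co2, mt-Co1, mt-Co3, Rpl32, Malat1, Dct, Rplp1, Gapdh, Gm42418, mt-Cytb, Tyrp1, Rpl13, Eef1a1 and Ppia. Dct and Tyrp1 are rule markers, so the choice of the barcodes raised their place. Gm42418, which overlaps ribosomal RNA, was at 5081 CPM against 16635 CPM.

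Among genes with at least 100 UMIs in the melanoma barcodes, leaving out the rule markers and the mitochondrial and ribosomal genes, the 20 highest ratios to called cells held 3 genes described above, Slc45a2, Pax3 and Cited1. Ptgds, the prostaglandin D2 synthase, was the most abundant of the others, at 1657 CPM (control library) and 1559 CPM (metastatic library) against 0.296 CPM (log2 12.41, 11.87–13.00). The carbonic anhydrases Car6 and Car9, the latter known for its induction by low oxygen, were at 355 against 0.0635 CPM (log2 12.45) and 189 against 0.106 CPM (log2 10.80). Against the shared barcodes with 0 rule markers Car9 had a log2 ratio of -0.02. Syt4, a vesicle protein, had 274 UMIs against 1 in called cells (log2 13.49, 11.00–18.80). Tspan10, a tetraspanin, had 306 UMIs against 2 (log2 12.65, 10.78–15.70).

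Gsta1 and Gm3776 had 383 and 327 UMIs against 3 and 1 in called cells, with log2 ratios of 12.39 (10.83–14.67) and 13.74 (11.26–19.05), but they are near-identical glutathione transferase genes and the split between them is uncertain. Gm773 was at 277 against 0.0529 CPM, Fkbp6 at 137 against 0.0317 CPM, and Gjb2, the gap junction protein connexin 26, at 112 against 0.0423 CPM. Igfn1 and Alx1, a homeobox factor of the facial neural crest, had 0 UMIs in called cells and were at least 2141-fold and at least 1455-fold higher (3 counts over both libraries as the floor). Insc, Clvs1, Cyct, Dnaic2 and Capn6 completed the set, at 45.3 to 75.5 CPM. Within the melanoma barcodes the largest fold between the libraries among the 20 was 1.16, for Slc45a2.

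The 10 lowest ratios, among genes of at least 100 CPM in called cells, ran from -5.22 to -4.81 on the log2 scale and included those of Abcb1a, Ldb2, Arl4d, Adgrl3, Sox7, Ccdc85b, Scn7a, Abi3bp and Sema3g. Sox7, an endothelial transcription factor, had 9 UMIs in the melanoma barcodes and was at 117 CPM in called cells. The levels of the 10 genes rested on 7 to 44 UMIs in the melanoma barcodes.

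Position in the genome was a feature that the rule had not used. Chromosome 6 held the most genes with a higher level: of its 446 compared genes 22.4% were 4-fold or more higher, against 11.0% over all chromosomes, and the median log2 ratio was 0.83 against -0.11. Chromosomes 15 and 4 followed with medians of 0.34 and 0.19, and chromosome 19 had the lowest of the autosomes at -0.58. Gpnmb, Mitf, Gapdh and Tpi1 are on chromosome 6. The 5 compared genes of chromosome Y had a median of -3.91. The cause of these differences between chromosomes was not tested.

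**Figure D5:**
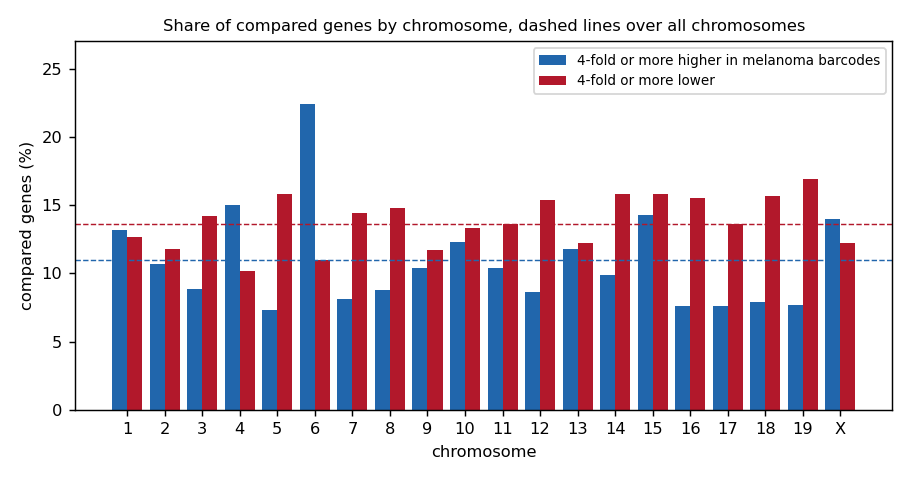
Share of compared genes that were 4-fold or more higher (blue) or lower (red) in melanoma barcodes than in called cells, by chromosome (percent of compared genes, bars from 0, dashed lines the shares over all chromosomes of 11.0% and 13.6%). Chromosome 6 has the tallest blue bar at 22.4%, and chromosome Y with 5 compared genes is not drawn.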

How the data were processed

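Single-cell RNA was measured in 1 control and 1 metastatic 10x library. The deposited values are raw UMI counts per gene and barcode, made by the authors with Cell Ranger on mm10; per the file headers, version 3.1.0 wrote the matrices, unfiltered for cells. The labels name the v2 kit, but the barcode list has 6794880 entries.

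UMIs were summed over barcodes and given as CPM. Levels carry exact Poisson, shares Clopper-Pearson and ratios exact conditional intervals, all at 95% and for counting error only. No doublet caller was run. Of 31053 genes, 31011 had coordinates in GENCODE M21 (GRCm38, the mm10 assembly). Symbols are those of the files. Named were the genes of 25 lists (286 genes), the 15 highest levels, and the 20 highest and 10 lowest ratios under stated minimums. Members and lists were chosen with earlier results of these data known. Intervals were checked on simulated counts. Python 3.11.15, numpy 2.4.6, scipy 1.17.1, pandas 2.3.3 and matplotlib 3.10.9 were used. Alternatives changed the UMI window, number of markers, library, total, scaling, reference cells and minimum. Some genes are not reported here.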

Additional observations from a re-analysis of the deposited data

How the results depend on the processing

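No test between groups was run, and no paired analysis was possible because each group has 1 library. The number of melanoma barcodes was 4699 with 100 to under 1000 UMIs in each library, 16981 with at least 1 rule marker and 3545 with at least 3. The summed pigment genes outside the rule had log2 ratios of 3.89 with 100 to under 1000 UMIs, 3.84 with 1 marker, 4.01 with 3 markers, 3.87 in the control and 3.99 in the metastatic library alone. The endothelial markers were at -4.07 with 100 to under 1000 UMIs and -4.01 with 3 markers, and the G2/M genes at 3.00 with 100 to under 1000 UMIs and 2.73 with 1 marker. With mitochondrial and ribosomal genes left out of the total, pigment, endothelial and G2/M lists were at 4.11, -3.75 and 2.95, and with median-ratio scaling, which moved all log2 ratios against the median of -0.11, at 4.04, -3.82 and 2.87. The shared barcodes with 0 rule markers as the reference gave 0.97, -2.13 and 0.53. Genes past 4-fold in either direction numbered 1923 of 7827. They were 812 of 2562 with a minimum of 100 CPM and 4126 of 14092 with no minimum beyond 1 UMI in each set. Against the shared barcodes with 0 markers they were 239 of 7090. Restricting to barcodes within 2-fold between the libraries, an alternative chosen after the data were seen, moved the endothelial markers to -4.20. Of 151 named genes with a ratio, 137 kept their direction under every alternative. Fth1 changed sign, to 0.05, without mitochondrial and ribosomal genes in the total, and Scgb1a1, to -0.01, with the control library alone. With the 0-marker barcodes as the reference, 13 genes changed sign: Tfe3 (0.18), Erbb3 (-0.63), Axl (-0.18), Sox9 (-0.50), Fn1 (-0.76), Tubb4b (-0.01), Trp53 (-0.13), Pgf (-0.20), Ccl2 (-3.92), Cdh2 (-0.10), Mmp2 (-0.44), Car9 (-0.02) and Scgb1a1 (-2.53). The cause was not tested. At a median of 216 UMIs per barcode, a gene under about 20 CPM rests on fewer than 50 UMIs in all.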

Other observations

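The 6211 shared barcodes without a rule marker also held RNA that neither the called cells nor the melanoma barcodes held at that level. This RNA included that of collagen genes. Col3a1 was at 341 CPM against 31.1 CPM in the melanoma barcodes and 8.09 CPM in called cells. Col1a1 was at 309 against 25.3 and 4.30 CPM, and Col1a2 at 303 against 24.4 and 8.37 CPM. Igfbp3, which binds insulin-like growth factors, was at 115 against 7.55 and 4.86 CPM, and Postn, a matrix protein of fibroblasts, at 128 against 12.4 CPM in the melanoma barcodes. The chemokines Ccl2 and Cxcl1 were at 53.8 and 41.0 CPM there, against 3.55 and 5.33 CPM in the melanoma barcodes. The same barcodes still carried 1817 CPM of the pigment genes outside the rule and 15693 CPM of glycolysis genes.

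Mesenchymal RNA was concentrated in few barcodes. Col1a1 had a UMI in 174 shared barcodes in the control library and in 151 in the metastatic library, and 65 of them were the same. A Col1a1 UMI was seen in the metastatic library in 37.4% of the barcodes that had one in the control library and in 0.374% of the others. For Pecam1 these shares were 5.66% and 1.15%. In the melanoma barcodes, the variance of mesenchymal UMIs was 3.13 times that of Poisson counts, with a UMI in 1.40% of them.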
